A study of Mus musculus with 2 samples.

Results

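The variable (V) segments of the T cell receptor were examined in diabetogenic CD4 T cells of the mouse, as 1 library from recipients given 2.5HIP-PLG and 1 from untreated recipients. Every row of the deposited gene table whose symbol starts with Trav or Trbv and a digit was taken, which gave 163 of 54532 rows, 128 for the alpha chain (Trav) and 35 for the beta chain (Trbv). The cells were BDC-2.5 effector T cells, which carry a transgenic receptor from a clone that recognises pancreatic islets. They had been activated and transferred into NOD.scid mice, a strain without T and B cells of its own. Treated recipients were injected intravenously with 1.75 mg of 2.5HIP-PLG nanoparticles 1 day after the transfer. The protocol text of both samples describes this injection, so the untreated group rests on its treatment label and description. From both groups, CD4-positive cells negative for a green Foxp3 reporter were obtained on day 6 by sorting lymph node and spleen cells, pooled over 4 mice per group. Each group is therefore 1 pool and 1 library, and no difference below has a replicate check or a p-value.

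A T cell builds each receptor chain by joining 1 V segment to a J segment (and, in the beta chain, a D segment) and splicing the product to a constant region. In a normal repertoire many V segments are used across cells, so the reads over V segments show which receptors a population carries. In receptor-transgenic cells the rearranged transgenes are expected to dominate, although a second chain from the cell's own loci can be expressed, more often for alpha than for beta. The BDC-2.5 receptor is known to use V beta 4, the product of Trbv2, and V alpha 1, which belongs to the Trav7 family. The labels name neither segment. In the mouse reference, the alpha locus holds duplicated stretches whose copies are marked d and n in the symbol, while most beta segments are single.

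The sequences below are the last 300 coding bases of the segment that held most beta reads (Trbv2), the beta segment that differed most between the libraries (Trbv20) and the most abundant member of the Trav7 family (Trav7-6). They come from the spliced coding sequences of GENCODE M21 on GRCm38, which represents the C57BL/6J strain and not NOD. Trbv2 lies on chromosome 6 (41047340 to 41047995, plus strand), Trbv20 on chromosome 6 (41188273 to 41188977, plus strand) and Trav7-6 on chromosome 14 (53716716 to 53717291, plus strand). Capitals mark the 3′ end from the last in-frame cysteine codon, where the hypervariable loop that meets the peptide begins.
Trbv2: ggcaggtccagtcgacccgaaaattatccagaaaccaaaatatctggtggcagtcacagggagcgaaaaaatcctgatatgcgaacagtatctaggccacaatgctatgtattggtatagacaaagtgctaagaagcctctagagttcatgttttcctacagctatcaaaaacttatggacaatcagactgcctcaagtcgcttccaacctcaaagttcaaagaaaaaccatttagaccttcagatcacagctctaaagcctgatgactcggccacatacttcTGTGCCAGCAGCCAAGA
Trbv20: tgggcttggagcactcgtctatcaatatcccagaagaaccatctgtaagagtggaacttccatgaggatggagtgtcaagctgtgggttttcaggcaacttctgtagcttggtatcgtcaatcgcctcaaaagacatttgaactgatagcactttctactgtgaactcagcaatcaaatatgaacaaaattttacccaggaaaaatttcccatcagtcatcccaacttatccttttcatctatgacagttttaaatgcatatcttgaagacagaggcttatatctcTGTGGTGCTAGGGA
Trav7-6: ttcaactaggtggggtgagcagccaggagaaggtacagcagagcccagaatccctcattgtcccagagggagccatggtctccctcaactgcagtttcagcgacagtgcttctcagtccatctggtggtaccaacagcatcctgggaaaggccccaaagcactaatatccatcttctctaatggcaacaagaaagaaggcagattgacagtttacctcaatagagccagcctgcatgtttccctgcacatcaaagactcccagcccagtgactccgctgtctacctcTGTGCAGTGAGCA

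The depth was 22580648 gene counts for 2.5HIP-PLG and 26036623 for Untreated. Where 2 values stand side by side below, the 2.5HIP-PLG library comes first. The values are expected counts, estimates in which a read that fits several genes is divided among them, and they were rounded for shares and ratios. A share is a segment's percentage of all Trav or all Trbv counts in 1 library, with an exact (Clopper-Pearson) 95% binomial interval. A ratio is 2.5HIP-PLG over untreated after scaling each library to its size, with an exact 95% interval. Calls of higher or lower needed a ratio of 1.5 or more in either direction together with an interval that left out 1, and only segments whose 2 counts summed to at least 20 were measured. Counting error alone enters these intervals; variation among mice, variation among library preparations and the division of reads among copies do not.

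The label of the cells was checked on receptor genes outside the V segments. Trac, the alpha constant gene, had 24327 and 21638 counts (ratio 1.31, 1.28 to 1.33). The beta constant genes Trbc1 (7419 and 6433 counts) and Trbc2 (34139 and 32441) had ratios of 1.34 (1.297 to 1.39) and 1.22 (1.21 to 1.24). All 11 genes of the T cell receptor complex list, which also holds the CD3 chains, Cd4 and Lck, were measured. None reached the 1.5-fold rule, beside 5.32% higher and 9.42% lower among all measured genes. Yet all 11 had ratios above 1 with intervals that left out 1, from 1.03 for Lck to 1.36 for Cd3e. The list sum had a ratio of 1.22 (1.215 to 1.229). J and D segments gave almost no counts, with 1 count over 60 Traj rows and 0 over 14 Trbj and 2 Trbd rows. Rag1 and Rag2, the recombinase genes needed to form new receptors, had 0 counts in both libraries, and the polymerase gene Dntt had 3 in each.

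Trbv2 dominated the beta chain in both libraries. Its counts were 13990 with the nanoparticle and 14297 in the untreated cells, which was 98.6% (98.4 to 98.8) and 95.9% (95.5 to 96.2) of Trbv counts. Relative to library size this was 619.6 and 549.1 CPM (counts as a share of the library total), a ratio of 1.14 (1.11 to 1.17) that was not called. The Trbv total, 14184 and 14914 counts, stood at 34.1 and 38.4 per 100 counts of the constant genes Trbc1 and Trbc2. Measured as the effective number of equally used segments (the inverse Simpson index), the beta chain amounted to 1.03 segments after 2.5HIP-PLG and 1.09 without.

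The beta reads outside Trbv2 were scarcer in the treated library. They numbered 194 of 14184 counts after 2.5HIP-PLG (1.37%, 1.18 to 1.57) and 617 of 14914 in the untreated library (4.14%, 3.82 to 4.47). The conditional odds ratio was 0.321 (0.272 to 0.379). Of 8 measured Trbv segments, 6 were lower, 0 higher and 2 neither, where 9.42% of all 13902 measured genes were lower and 5.32% higher. Their median log2 ratio was -1.49 and that of all measured genes 0.00, with 0.5 counts added. A scarce segment could reach the count minimum through the untreated library alone, so this count describes the segments and is no test of them.

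**Figure D1:**
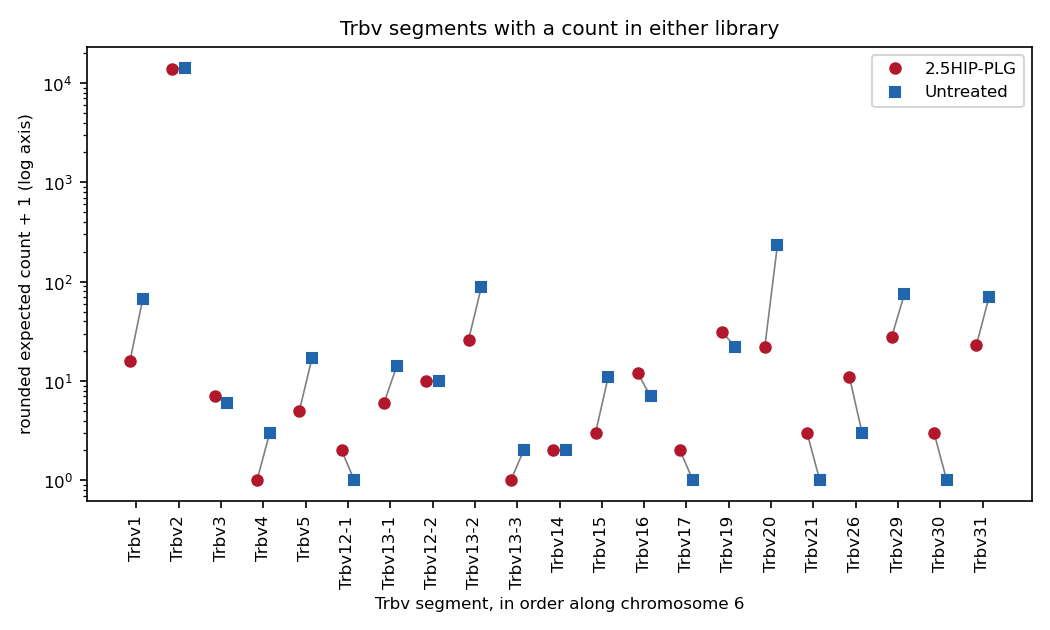
Rounded expected count plus 1 (vertical log axis) of the 21 Trbv segments with a count in either library, in chromosomal order, with circles for 2.5HIP-PLG and squares for Untreated. Trbv2 stands alone with 13990 and 14297 counts in the 2 libraries, and Trbv20 shows the widest gap, 21 against 235 counts.

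Trbv20 accounted for the largest part of this difference. Its 21 and 235 counts were 0.148% (0.0917 to 0.226) and 1.58% (1.38 to 1.79) of Trbv counts. It was 9.62-fold lower (6.15 to 15.8). Among the beta reads outside Trbv2, Trbv20 made up 10.8% (6.83 to 16.1) after 2.5HIP-PLG and 38.1% (34.2 to 42.1) in the untreated library. Without Trbv20, the share outside Trbv2 was 1.22% and 2.60%, so the pooled share of the remaining segments was also lower in the treated library (odds ratio 0.463, 0.384 to 0.556). That gap is 2.13-fold in shares, against 3.03-fold with Trbv20 included.

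The other lower beta segments differed by smaller factors. Trbv1 had 15 and 66 counts (3.79-fold lower, 2.14 to 7.14). Trbv13-2, a member of the V beta 8 group that is among the most used in normal mice, had 25 and 87 counts (2.99-fold, 1.90 to 4.85). Trbv31, the only V segment of this locus on the minus strand, had 22 and 69 counts (2.70-fold, 1.65 to 4.58). Trbv29 had 27 and 74 counts (2.36-fold, 1.499 to 3.81). Trbv5 rested on 4 and 16 counts (3.44-fold, 1.11 to 14.1), and it was the only beta segment whose expected count was not whole.

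Not every rarer beta segment was lower. Trbv19 had 30 and 21 counts (ratio 1.66, 0.920 to 3.05), an interval that includes 1. The 27 rows below the count minimum summed to 50 and 49 counts, a ratio of 1.19 (0.784 to 1.80). Among them Trbv16 had 11 and 6 counts, Trbv12-2 had 9 in each, Trbv13-1 had 5 and 13, Trbv15 had 2 and 10, and Trbv26 had 10 and 2. Of these 27 rows, 13 had a count in either library. The 14 rows at 0 in both libraries held all 13 annotated Trbv pseudogenes, and a count of 0 allows up to 3 counts per library.

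Markers of other T cells moved with the beta reads outside Trbv2 in part. Of 6 measured genes of the gamma delta T cell list, 3 were lower and 0 higher (all measured genes: 9.42% and 5.32%), and the list summed to 61.7 and 73.7 CPM. The lower genes were the gamma constant genes Tcrg-C4 (130 and 382 counts; 2.53-fold, 2.07 to 3.11) and Tcrg-C1 (10 and 38) and the segment Trgv2 (10 and 27). Tcrg-C1 and Trgv2 reached the count minimum through the untreated library alone, so the count of lower genes is no test of the list. Trdc, the delta constant gene and the most abundant of the list, had 1177 and 1377 counts (ratio 0.994, 0.919 to 1.07). Sox13 had 30 and 28 counts (ratio 1.25, 0.719 to 2.16). The 6 Trdv rows, V segments of the delta chain, went the other way with 104 and 85 counts in all (ratio 1.42, 1.06 to 1.92). Of these, Trdv4, which is in the list, had 4 and 14 counts. Of the 7 list genes found in the table none was at 0 in both libraries. The CD8 markers stood at 0 and 9 counts for Cd8a and at 304 and 272 for Cd8b1. Of the 8 genes of the B cell list, which mark a cell that recipients lack, Igkc was lower (22 and 73 counts; 2.85-fold) and Ighm higher (3761 and 2641), and Ighm made up nearly all of the list's sum. Ms4a1 was at 0 in both libraries, Pax5 had 1 and 6 counts and Cd79b had 5 and 12. Of the 4 NK cell markers, Ncr1 (54 and 96 counts) and Klrb1c (21 and 52) were lower and Eomes (735 and 360) was higher. Klre1 (211 and 308) was neither (all measured genes: 9.42% lower and 5.32% higher). That list summed to 1021 and 816 counts (ratio 1.455, 1.325 to 1.597), of which Eomes gave the largest part. The part of such cells in the Trbv difference was not tested, and in bulk RNA fewer cells with a transcript and less of it per cell cannot be told apart.

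The alpha chain looked different, since no Trav segment dominated in either library. The 128 rows summed to 3956 counts after 2.5HIP-PLG and 3382 in the untreated library, which was 16.3 and 15.6 per 100 counts of Trac. Per kilobase of annotated transcript, all Trav rows together had 10159 and 8712 counts, while Trbv2 alone had 24982 and 25530. The leading segment held 6.62% of Trav counts after 2.5HIP-PLG and 5.38% without, and it took 13 and 16 segments to reach 50% of the counts. The effective number of segments was 34.7 and 43.4. At least 1 count was found for 96 and 99 segments, and the first number becomes 95.7 when the treated locus is thinned to the 3382 counts of the other. Of the 27 rows at 0 in both libraries, 16 were pseudogenes. Another 4 Trav pseudogenes had counts, 24 and 27 in all.

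**Figure D2:**
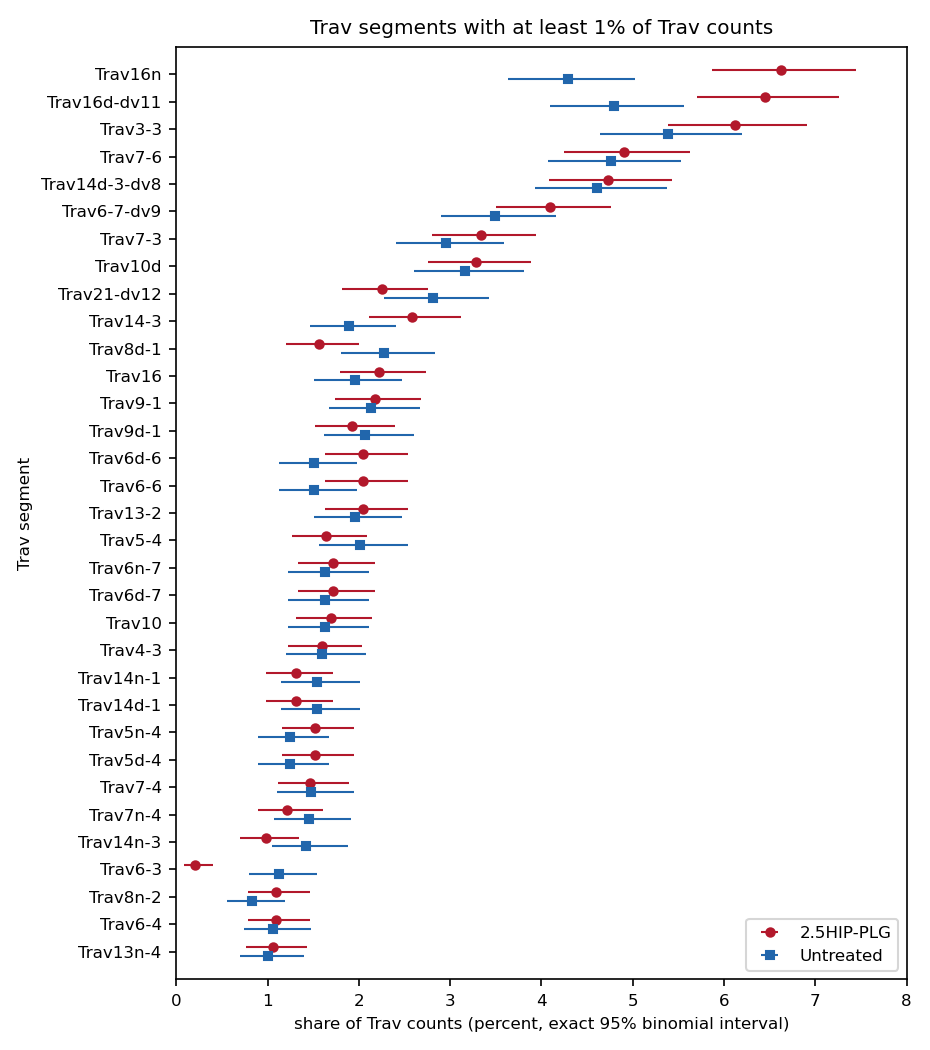
Share of Trav counts in percent (horizontal axis, with exact 95% binomial intervals) for the 33 Trav segments with at least 1% in either library, with circles for 2.5HIP-PLG and squares for Untreated. The shares decline gradually from 6.62% for Trav16n after 2.5HIP-PLG, and the libraries part most at Trav16n, Trav16d-dv11 and Trav6-3. Trav6d-3, a copy of Trav6-3 that differs in the other direction, is below 1% in both libraries and is not shown.

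The Trav7 family, to which the V alpha 1 chain of BDC-2.5 belongs, held a minority of alpha reads in both libraries. Its 13 rows summed to 519 counts after 2.5HIP-PLG and 518 without, or 13.1% (12.1 to 14.2) and 15.3% (14.1 to 16.6) of Trav counts. In the untreated library this was the largest family, ahead of Trav6 with 471 counts (13.9%) and Trav14 with 415 (12.3%). Within it, Trav7-6 had 194 and 161 counts, Trav7-3 had 132 and 100, Trav7-4 had 58 and 50, and Trav7n-4 had 48 and 49. Trav7-2 had 26 and 22 counts. So even the leading member held only 4.90% and 4.76% of Trav counts. Reads of the NOD alleles or of the transgene that were not assigned to a reference segment cannot be counted from this table.

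The family split into members that were higher and members that were lower. Trav7-3 was higher (ratio 1.54, 1.17 to 2.01), as was Trav7-1, with 17 and 4 counts (4.94, 1.61 to 20.2). Trav7-5 had 0 and 28 counts, at least 6.11-fold lower by the exact interval and 8.03-fold at a floor of 3 counts per library. Its copies Trav7d-5 and Trav7n-5 each had 8 and 32 counts (3.44-fold lower, 1.55 to 8.64). Summed before rounding, these 3 rows together had 17 and 92 counts, 4.66-fold lower (2.76 to 8.33). The other 10 rows of the family, summed in the same way, had 504 and 426 counts (ratio 1.38, 1.21 to 1.57). Trav7d-3, a copy of Trav7-3, had 5 and 24 counts (4.13-fold lower, 1.54 to 13.9), but both copies summed to 137 and 124 counts (1.29, 1.00 to 1.65). The sums were chosen after their values were seen.

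The Trav16 family held the most alpha reads after 2.5HIP-PLG and differed between the libraries. Its 3 members summed to 605 counts after 2.5HIP-PLG and 373 without, or 15.3% (14.2 to 16.5) and 11.0% (9.99 to 12.1) of Trav counts. The ratio was 1.89 (1.66 to 2.15). Trav16n had 262 and 145 counts (2.10, 1.71 to 2.59), Trav16d-dv11 had 255 and 162 (1.83, 1.497 to 2.24) and Trav16 had 88 and 66 (1.55, 1.11 to 2.17). All 3 were called higher, and none had whole counts.

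The last 300 coding bases of the 3 Trav16 members show how closely the copies resemble each other. Capitals mark the 6 positions at which they differ. Trav16 lies on chromosome 14 (53743104 to 53743705), Trav16d-dv11 on chromosome 14 (53047287 to 53047821) and Trav16n on chromosome 14 (53351028 to 53351621), all on the plus strand.
Trav16: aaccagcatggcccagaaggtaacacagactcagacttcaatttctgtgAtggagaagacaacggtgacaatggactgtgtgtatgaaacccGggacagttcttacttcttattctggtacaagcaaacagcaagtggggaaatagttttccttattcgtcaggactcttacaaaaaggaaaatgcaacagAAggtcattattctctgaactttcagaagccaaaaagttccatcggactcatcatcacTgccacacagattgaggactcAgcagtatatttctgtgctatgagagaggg
Trav16d-dv11: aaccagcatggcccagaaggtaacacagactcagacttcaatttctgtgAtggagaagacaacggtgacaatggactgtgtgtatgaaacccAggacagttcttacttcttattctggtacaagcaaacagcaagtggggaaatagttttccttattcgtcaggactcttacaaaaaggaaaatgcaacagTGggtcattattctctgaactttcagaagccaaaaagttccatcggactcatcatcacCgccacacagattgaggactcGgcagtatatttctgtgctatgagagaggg
Trav16n: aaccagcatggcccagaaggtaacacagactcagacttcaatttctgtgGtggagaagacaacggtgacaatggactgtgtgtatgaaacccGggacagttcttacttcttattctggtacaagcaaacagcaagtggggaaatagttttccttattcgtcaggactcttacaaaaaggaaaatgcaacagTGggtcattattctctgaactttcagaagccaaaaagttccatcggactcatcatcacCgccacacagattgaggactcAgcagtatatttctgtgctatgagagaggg
Trav16d-dv11 and Trav16n differed at 3 of these bases (99% identity), Trav16 and Trav16n at 4, and Trav16 and Trav16d-dv11 at 5. The longest stretch shared by all 3 was 98 bases, and Trav16d-dv11 and Trav16n shared a longer one. A read that lies wholly within such a stretch cannot be assigned to 1 member.

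Across the Trav locus, segments called higher outnumbered those called lower. Of 70 measured segments, 16 (22.9%) were higher, 5 (7.14%) lower and 49 neither, beside 5.32% higher and 9.42% lower among all measured genes. All 5 lower segments reached the count minimum through the untreated library alone, so this count describes the segments and is no test of them. The median log2 ratio was 0.47, against 0.00 over all measured genes. Copies that share a coding sequence were counted separately here. With such copies summed, a setting chosen after seeing the data, 65 were measured, 18 higher and 4 lower. The whole locus had a ratio of 1.36 (1.299 to 1.42), close to that of Trac. When ratios were taken to the Trav total instead of the library, so that they compare shares, 2 segments were higher (Trav16n and Trav7-1) and 7 lower. The 7 were Trav7-5, Trav7d-5, Trav7n-5, Trav7d-3, Trav6-3, Trav9n-4 and Trav14-1. These, too, all reached the count minimum through the untreated library alone. Trav6-3 had 8 and 38 counts (4.09-fold lower by library size, 1.88 to 10.1). Its copy Trav6d-3 went the other way with 18 and 0 counts, below the count minimum. Neither copy had whole counts in both libraries. Expected counts were 7.99 and 38.0 for Trav6-3, and 18.01 and 0.0 for Trav6d-3. Of their 50-base words, only 12.98% in Trav6-3 and 1.007% in Trav6d-3 occurred in no other V segment. The 4.09-fold difference therefore describes the row Trav6-3 and not the pair of copies. The part that the division of reads between them had in this difference was not tested.

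Most other abundant Trav segments held similar shares in both libraries. Trav3-3, the leading segment of the untreated library, had 242 and 182 counts, 6.12% (5.39 to 6.91) and 5.38% (4.65 to 6.196). Trav14d-3-dv8 had 187 and 156 counts (4.73% and 4.61%), and Trav10d had 130 and 107 (3.29% and 3.16%). Trav6-7-dv9 had 162 and 118 counts (4.10% and 3.49%) and Trav14-3 had 102 and 64 (2.58% and 1.89%). By library size Trav3-3 (ratio 1.55, 1.27 to 1.88), Trav6-7-dv9 (1.60, 1.25 to 2.04) and Trav14-3 (1.85, 1.34 to 2.57) were nevertheless called higher. Trav14d-3-dv8 and Trav10d were not. Across the 101 Trav segments with a count, the shares in the 2 libraries had a Pearson correlation of 0.96 and a Spearman correlation of 0.85. This is a description of segments that share reads and a reference, not of independent points.

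Segments marked dv, which can join the delta as well as the alpha chain, had 10 rows with 734 counts after 2.5HIP-PLG and 564 without. They made up 18.6% (17.4 to 19.8) and 16.7% (15.4 to 18.0) of Trav counts. Trav16d-dv11, already described with the Trav16 family, gave 255 and 162 of these counts. Trav21-dv12, the largest of them with whole counts, had 89 and 95 counts (ratio 1.09, 0.806 to 1.47). Segments used by invariant receptors of other T cell types were rare. Trav1, used by mucosal-associated invariant T cells, had 5 counts in each library, and Trav11d, of the family used by invariant natural killer T cells, had 10 and 7, with 0 for Trav11.

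**Figure D3:**
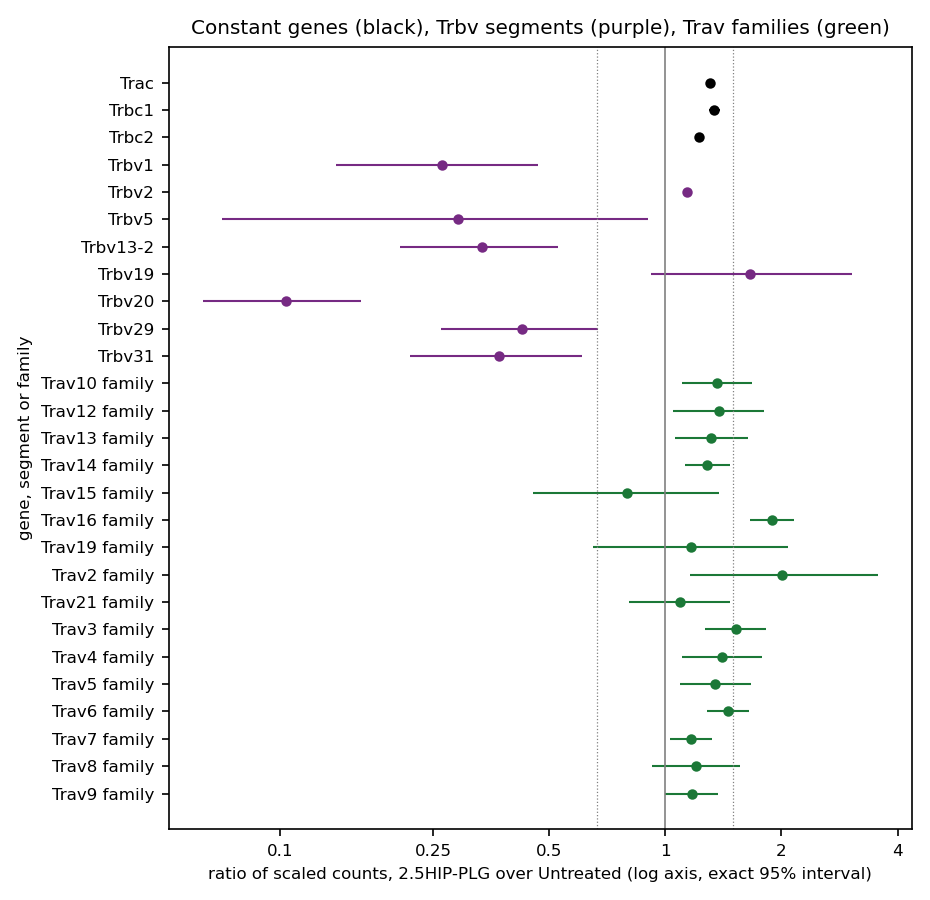
Ratio of scaled counts, 2.5HIP-PLG over Untreated (horizontal log axis, exact 95% intervals), for the 3 constant genes (black), the 8 measured Trbv segments (purple) and the 16 measured Trav families (green), with dotted lines at the 1.5-fold rule in either direction. Trac and most Trav families lie between 1 and 1.5, whereas 6 Trbv segments lie below 1 and Trbv20 is the lowest at 0.104.

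Summed by family, the calls of the alpha chain went in 1 direction. Of 16 measured Trav families, 3 were higher and 0 lower, beside 5.32% higher and 9.42% lower among all measured genes. The higher families were Trav16, Trav3 (ratio 1.52, 1.27 to 1.82) and Trav2 (2.01, 1.16 to 3.57). Trav2 is a single segment with 38 and 22 counts, whole in both libraries. The large families Trav6 (ratio 1.45, 1.29 to 1.65), Trav14 (1.29, 1.12 to 1.47) and Trav9 (1.17, 0.998 to 1.37) stood on both sides of the 1.36 of the whole locus. Only the Trav15 family had a ratio below 1 among the measured families (0.797, 0.454 to 1.38), an interval that includes 1.

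Counts were whole in nearly all beta segments and in few alpha segments. Among segments with a count in either library, 20 of 21 Trbv (95.2%) and 18 of 101 Trav (17.8%) had expected counts within 0.001 of a whole number in both libraries, beside 63.3% of all measured genes. With the rows at 0 included, these were 34 of 35 Trbv and 45 of 128 Trav rows. The 45 whole Trav rows held 9.45% of Trav counts after 2.5HIP-PLG and 11.0% without. Taken alone they had a ratio of 1.17 (1.01 to 1.35), against 1.38 (1.32 to 1.45) for the Trav rows that were not whole. Of the 11 measured whole Trav segments, 3 were higher (Trav2, Trav7-1 and Trav8n-2, with 43 and 28 counts) and 0 lower, beside 5.32% and 9.42% of all measured genes.

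**Figure D4:**
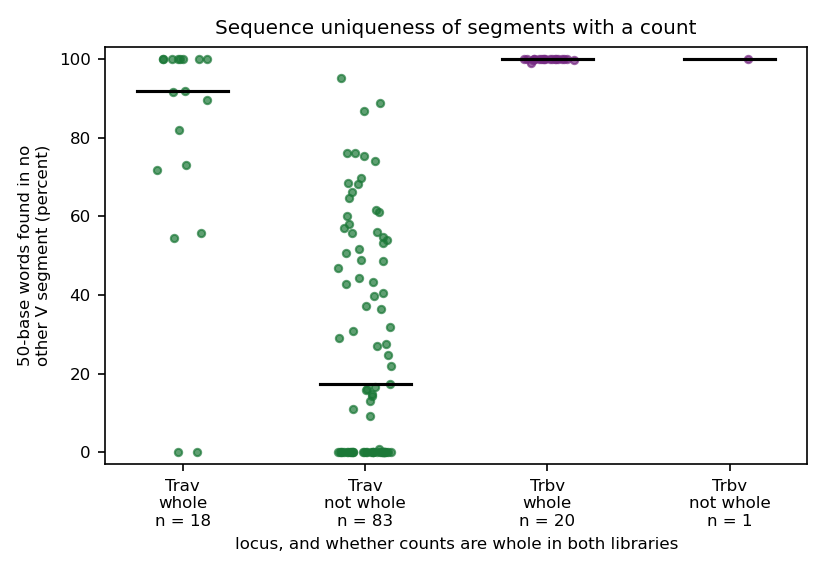
Percentage of each segment's 50-base words that occur in no other V segment (vertical axis), for segments with a count, split by locus and by whether counts are whole in both libraries. Horizontal bars are medians, 91.8% for whole and 17.4% for other Trav segments, and 100% for Trbv.

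The fractional counts went with shared sequence. Of the 50-base words in a Trav transcript, a median of 91.8% occurred in no other V segment where counts were whole and 17.4% where they were not. In Trbv the median was 100%. In 15 pairs of Trav segments the members had the same fractional counts in both libraries, and in all 15 the coding sequence of a member was identical to that of its partner or contained in it. A d and an n copy formed 14 of these pairs, such as Trav6d-7 and Trav6n-7 (67.50 and 55.17 expected counts each). The other pair was Trav6-6 and Trav6d-6 (81.05 and 50.77 each). Whole counts do not by themselves show an unambiguous segment, since Trav7-2 had whole counts while 0% of its 50-base words were its own. Rows without a copy letter held 47.4% of Trav counts after 2.5HIP-PLG and 48.1% without, d copies 32.1% and 31.3%, and n copies 20.5% and 20.6%.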

How the data were processed

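Expression was measured by RNA sequencing in 2 libraries, 1 per group, with RNA and libraries made by kits named in the labels' protocols. The authors deposited expected counts per gene; the submitters' processing notes name STAR, RSEM 1.3.1 and GRCm38. Not given in the sources used here are the STAR version, the annotation and the use of strand. Expected counts that fit several segments were divided among them, so values of near-identical copies, and of overlapping or antisense genes, are uncertain.

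Counts were rounded, except that sums over named Trav copies and over rows with whole or other counts were formed first and then rounded. Libraries were scaled by total times the TMM factor (edgeR 4.0.16, R 4.3.3), 0.996 for 2.5HIP-PLG and 1.004 for Untreated. Exact intervals were computed with Python 3.11.15 and scipy 1.17.1 over all 13902 rows with a count sum of at least 20, and the calculation was tested on simulated data. With 1 library per group no test across samples was made. All 163 members matched GENCODE M21, which gave positions, classes and coding sequences. Segments were named where they held at least 1% of their locus, were among the next 10 by counts, or among the 6 in each direction whose nearer interval bound was largest. Trav1, Trav11, the receptor genes and all marker lists were named in any case, and other small counts were named after they were seen. Members, lists and rules were chosen with earlier results of these data known. The thymocyte list summed to 358 and 571 counts, of which Cd1d1 gave 355 and 568, with Rag1, Rag2 and Ptcra at 0. The B cell list summed to 3804 and 2746, of which Ighm gave 3761 and 2641, and the invariant NKT list to 31 and 36. Alternatives were other scalings (with DESeq2 1.42.0 among them), count minimums, thresholds and segment sets.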

Additional observations from a re-analysis of the deposited data

How the results depend on the processing

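The share of Trbv counts outside Trbv2 stayed lower after 2.5HIP-PLG in every alternative run. It was 1.02% and 3.82% (ratio 0.267) over segments with a count sum of at least 20, 1.94% and 6.24% per kilobase of transcript, and without Trbv20 1.22% and 2.60% (ratio 0.469). The last 2 settings, the one without the Trav16 family, the sum over copies and the sums named in the text were chosen after seeing the data. The Trav share outside the Trav7 family was 86.9% and 84.7% in the main setting (ratio 1.03). It was 38.9% and 40.1% when other segments had to be whole, which leaves few of them. That ratio of 0.972 lay on the other side of 1. The share was 84.5% and 82.8% without the Trav16 family, and the ratio per library total was 1.38.

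The 16 higher and 5 lower Trav segments were the same in number under library total, upper quartile and DESeq2 scaling. Higher segments numbered 2 of 70 with scaling to the locus total, a setting without a share over all genes. They numbered 5 of 70 with a ratio of at least 2 (2.86% of all genes) and 10 of 70 with a 99% interval (4.52%). With a count sum of at least 100 they numbered 11 of 27 (4.45% of all genes). As families 3 of 16 were higher and among whole counts 3 of 11 (5.32% of all genes under the same rule). Lower segments numbered 0 of 27 with a count sum of at least 100 (6.62% of all genes). They numbered 0 of 16 as families and 0 of 11 among whole counts (9.42% of all genes under the same rule). None of the 5 lower segments of the main setting had a count sum of 100 or whole counts. The 0 was thus fixed in advance for the count sum of 100 and for whole counts. For Trbv, 3 of 4 were lower with a count sum of at least 100 (6.62% of all genes). Trbv26 was higher with a count sum of at least 10, as 1 of 14 (5.29% of all genes), and with no minimum, as 1 of 21 (4.18%). Detected Trav families numbered 20 and 21, with an effective number of 10.1 and 10.5. Trbv segments with at least 5 counts numbered 12 after 2.5HIP-PLG, and the effective number without Trbv2 was 9.91 and 4.85. Where not stated, the cause was not tested. No paired analysis was possible because each group has 1 library, and no library could be left out. Depth limits the rarer Trbv segments, most of which had fewer than 20 counts.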
